A study of Rattus norvegicus with 10 samples.

Results

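G protein-coupled receptors sense signals outside the cell and pass them to heterotrimeric G proteins, whose subunits then act on enzymes such as adenylyl cyclase. Orphan receptors, most of which carry the symbol Gpr and a number, are named by sequence because no ligand was known when they were found. Adhesion receptors (symbol Adgr) carry a long extracellular domain that binds matrix or membrane proteins of other cells, and in Schwann cells the adhesion receptor Adgrg6 is required for myelination, as known from zebrafish and mouse. The expression of 74 genes of these families was examined in JUG2, an enteric glial cell line from rat, among the 23188 transcript clusters measured. A transcript cluster is the set of probes that reads 1 gene. Members were taken by symbol alone: 17 begin with Adgr and 57 are Gpr followed by a number. Of these, 70 carry the symbol in the platform annotation. The remaining 4 (Adgrg6, Adgra3, Adgra2 and Gpr137b) are named only in the study's own list of changed genes, which can only add genes that had passed a test on these samples. Counts are therefore also given over the 70. The name Gpr covers genes of other kinds too: Gpr15lg encodes a ligand of the receptor GPR15, and Gpr155, Gpr137b, Gpr107 and Gpr89b encode proteins of intracellular membranes.

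RNA of 10 cultures was hybridized to Clariom S arrays. SOX10 +dox cells carried a lentiviral Sox10 transgene under a doxycycline-responsive promoter together with a transactivator, and had received 1 µg/ml doxycycline for 48 h. SOX10 -dox cells were the same line without doxycycline. GFP +dox and GFP -dox cells carried the transactivator with GFP in place of Sox10, with the same doxycycline treatment or none. The SOX10 groups have 4 arrays each and the GFP groups 1 each. Lines were kept as transduced pools under puromycin as far as the methods describe them, so that all cells had also met the virus and the antibiotic. The methods give 4 independent experiments. In RNA of whole cultures, fewer cells of a kind and less RNA per cell cannot be told apart. Each value is a log2 signal as deposited by the authors, so a difference of 1 means 2-fold. Array medians ran from 6.69 to 6.86. Signals of different genes cannot be set against each other, since each comes from its own probes.

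The array labelled SOX10 +dox replicate 1 had a Sox10 signal of 6.74 and the array labelled SOX10 -dox replicate 1 had 12.90, against the direction of their labels. On replicates 2 to 4, Sox10 lay between 12.62 and 13.02 in SOX10 +dox cells and between 6.11 and 6.42 in SOX10 -dox cells. The GFP arrays had 6.20 with and 5.70 without doxycycline. The comparison was therefore made on replicates 2 to 4 (3 arrays against 3), and replicate 1 is given apart, as labelled. Of 8 enteric glial markers with a platform symbol, 5 rose in SOX10 +dox cells (Sox10, Erbb3, Nes, S100b and Ngfr). Sox10 is the induced gene and served to set replicate 1 apart, so that its rise is not a separate result. S100b was above the brightest background control probe set on none of the 10 arrays and Ngfr on 1. The mean log2 signal of the 8, Sox10 included, was 8.98 to 9.25 in SOX10 +dox cells and 6.41 to 6.81 in SOX10 -dox cells. The largest log2 differences in it were those of Erbb3 (7.34) and Sox10 (6.55), while Entpd2 (0.13) and Fabp7 (0.01) did not pass the test. The glial filament gene Gfap (log2 difference 0.23 ± 0.26) did not pass the test, nor did a ninth marker, Ednrb, which is named only in the study's list (1.13 ± 0.30, adjusted p = 0.07). Of the macrophage markers, 7 of 8 were above the brightest background control probe set on none of the 10 arrays, as were all 4 endothelial and all 4 epithelial markers. The exception, Cd14, a receptor for bacterial lipopolysaccharide, was above it on all 10 arrays and fell by 1.57 ± 0.26 on the log2 scale in SOX10 +dox cells (adjusted p = 0.00661, limma). Also above it on all 10 arrays were 3 of 5 fibroblast markers (Col1a1, Col1a2 and Pdgfra), 1 of 4 smooth muscle markers (Acta2) and 2 of 4 neuronal markers (Uchl1 and Tubb3), none of which was called. That control lay between 7.45 and 8.29 on the arrays. By the same mark, 11 of the 74 genes were above background on every array and 53 on no array.

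In SOX10 +dox cells, 4 genes were higher and 2 lower than in SOX10 -dox cells. Gpr155, Adgrl2, Adgrg6 and Gpr137b rose, and Gpr39 and Adgra3 fell. These were 3 of the 17 Adgr genes (2 higher, 1 lower) and 3 of the 57 Gpr genes (2 higher, 1 lower). Of them Adgrg6, Adgra3 and Gpr137b are named only in the study's list of changed genes. The shares of the 2 families can therefore not be set against each other. A call needed an adjusted p under 0.05 (limma, Benjamini-Hochberg over all 23188 transcript clusters) and a difference of at least 2-fold. By this rule 6 of 74 genes were called (8.11%), where 3.5% of all transcript clusters were (2.26% higher and 1.24% lower). Among the 70 genes with a platform symbol, 3 were called (4.29%): Gpr155 and Adgrl2 higher, Gpr39 lower. At any fold, 7 of the 74 genes had an adjusted p under 0.05, 4 higher and 3 lower, where 3.85% of all transcript clusters did (2.4% higher and 1.45% lower). Among the 70 genes, 2 were higher and 2 lower by this measure. The 74 genes had a median log2 difference of 0.11 and a median size of difference of 0.243, where all transcript clusters had -0.02 and 0.235. Over the family the share called thus rested in part on the 4 genes named from the study's list, and 68 genes did not pass.

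The upstream sequences of the 4 higher genes are printed because SOX10 is a transcription factor of the SOX family, whose members bind short motifs such as ACAAAG and ACAATG. Each run is the 250 bases before the RefSeq start in build GRCr8, read 5′ to 3′ on the gene's own strand, which is the minus strand for all 4. Capitals mark a match to either motif on either strand. The windows are chr3:78677804-78678053 (Gpr155), chr2:240495300-240495549 (Adgrl2), chr1:10773876-10774125 (Adgrg6) and chr17:93025912-93026161 (Gpr137b).
Gpr155: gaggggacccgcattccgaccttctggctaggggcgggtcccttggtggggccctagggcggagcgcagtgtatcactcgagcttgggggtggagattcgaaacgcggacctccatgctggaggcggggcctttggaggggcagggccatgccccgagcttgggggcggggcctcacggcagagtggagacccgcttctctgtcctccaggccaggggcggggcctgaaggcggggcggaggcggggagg
Adgrl2: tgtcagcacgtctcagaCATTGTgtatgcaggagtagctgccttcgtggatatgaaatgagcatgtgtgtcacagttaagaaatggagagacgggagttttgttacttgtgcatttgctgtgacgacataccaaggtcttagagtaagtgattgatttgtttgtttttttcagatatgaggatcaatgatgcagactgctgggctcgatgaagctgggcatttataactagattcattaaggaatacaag
Adgrg6: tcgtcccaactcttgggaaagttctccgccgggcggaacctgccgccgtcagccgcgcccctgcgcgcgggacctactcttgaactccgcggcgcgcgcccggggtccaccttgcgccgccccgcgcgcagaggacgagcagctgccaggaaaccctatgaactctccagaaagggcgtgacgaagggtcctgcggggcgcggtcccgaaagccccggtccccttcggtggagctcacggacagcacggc
Gpr137b: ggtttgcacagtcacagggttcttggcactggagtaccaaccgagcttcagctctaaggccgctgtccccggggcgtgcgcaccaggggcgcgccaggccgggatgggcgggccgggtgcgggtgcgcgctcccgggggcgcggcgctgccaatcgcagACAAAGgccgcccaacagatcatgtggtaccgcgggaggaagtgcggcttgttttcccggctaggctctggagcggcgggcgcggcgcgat
The window of Adgrl2 holds CATTGT, the reverse complement of ACAATG, at position -233 from the start, and that of Gpr137b holds ACAAAG at position -91. Those of Gpr155 and Adgrg6 hold no such letters. A match occurred in 15 of the 62 windows of the family (24.2%) and in 25.3% of all 33469 rat promoter windows of this length. Counted by gene, it was 14 of the 60 genes of the family with a window (23.3%). A match of letters describes the sequence and is not a binding site.

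Gpr155 was bright in SOX10 +dox cells and at background in SOX10 -dox cells. It encodes a lysosomal membrane protein that senses cholesterol, and the probes gave log2 signals of 9.55, 9.70 and 8.97 in SOX10 +dox cells, against 5.53, 5.44 and 5.81 in SOX10 -dox cells (replicates 2, 3 and 4). All SOX10 +dox arrays of these replicates lay above the brightest background control and all SOX10 -dox arrays below it. The means were 9.40 ± 0.39 in SOX10 +dox cells and 5.59 ± 0.19 in SOX10 -dox cells (SD, n = 3 each), a log2 difference of 3.81 ± 0.25 (SE, adjusted p = 1.32e-05, limma). Against the brightest background control in place of the SOX10 -dox signal, Gpr155 was at least 3.02-fold higher, a bound under the measured folds of Adgrl2, Gpr39 and Adgra3, so that its rank among them is not settled. On replicate 1 the arrays ran the other way: 6.24 on the array labelled SOX10 +dox and 10.21 on that labelled SOX10 -dox. The GFP line stayed low, with 5.58 in GFP +dox cells and 6.14 in GFP -dox cells. Gpr155 was also the single gene of the 74 that was called in the test of the difference between the lines, with a SOX10 effect 4.37 ± 0.50 above the GFP effect (log2, SE, adjusted p = 0.00393, limma), a call that 0.384% of all transcript clusters reached (0.358% higher and 0.0259% lower). Before adjustment, 13 of the 74 genes and 11 of the 70 with a platform symbol had a p under 0.05 in this test. Of all transcript clusters, 9.04% did.

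Gpr137b, like Gpr155, encodes a multipass protein of the lysosomal membrane and is known to act on mTORC1 there. Its log2 signals were 10.08, 10.19 and 9.95 in SOX10 +dox cells and 9.19, 9.13 and 8.57 in SOX10 -dox cells, so that the groups did not overlap. The difference of 1.11 ± 0.24 (2.16-fold, adjusted p = 0.0247, limma) was the smallest of those called. The call rested on all arrays but 1: without any single array other than SOX10 +dox replicate 4, the adjusted p was between 0.0509 and 0.11. The related genes Gpr137 (0.29 ± 0.28) and Gpr137c (-0.13 ± 0.27) did not pass.

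Adgrl2 encodes latrophilin 2, an adhesion receptor that binds teneurins and FLRT proteins on other cells. SOX10 +dox arrays gave 14.02, 13.77 and 13.03 and SOX10 -dox arrays 12.11, 11.51 and 11.76, with no overlap and with SOX10 +dox replicate 4 the lowest of its group. The gene was 3.51-fold higher in SOX10 +dox cells (log2 difference 1.81 ± 0.29, adjusted p = 0.00488, limma). In the GFP line the signal was 11.56 with and 12.30 without doxycycline, and the difference between the responses (2.56 ± 0.58) did not pass (adjusted p = 0.124). The other latrophilins did not pass in the SOX10 line either. Adgrl4, known from endothelium, had 8.05, 7.72 and 7.06 in SOX10 +dox cells and 6.28, 6.75 and 6.87 in SOX10 -dox cells (0.97 ± 0.29, adjusted p = 0.104), while Adgrl1 (-0.27 ± 0.22) and Adgrl3 (0.33 ± 0.22) lay nearer to 0.

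Adgrg6 encodes GPR126, the receptor through which Schwann cells raise cAMP before they myelinate. Its log2 signals were 7.67, 7.80 and 7.72 in SOX10 +dox cells and 6.79, 6.31 and 5.45 in SOX10 -dox cells. The treated arrays lay close together and the untreated ones were spread, with replicate 4 lowest. The difference was 1.55 ± 0.31 (log2, SE, adjusted p = 0.0183, limma). All 6 arrays were below the brightest background control, so no fold is given. Leaving out SOX10 +dox replicate 2 gave an adjusted p of 0.0657. Without SOX10 +dox replicate 3 the adjusted p was 0.0798, and 0.0594 without SOX10 -dox replicate 3, so that each of these 3 arrays ended the call. GFP +dox cells, at 6.92, lay between the SOX10 groups, and GFP -dox cells, at 6.65, within the range of SOX10 -dox cells.

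**Figure D1:**
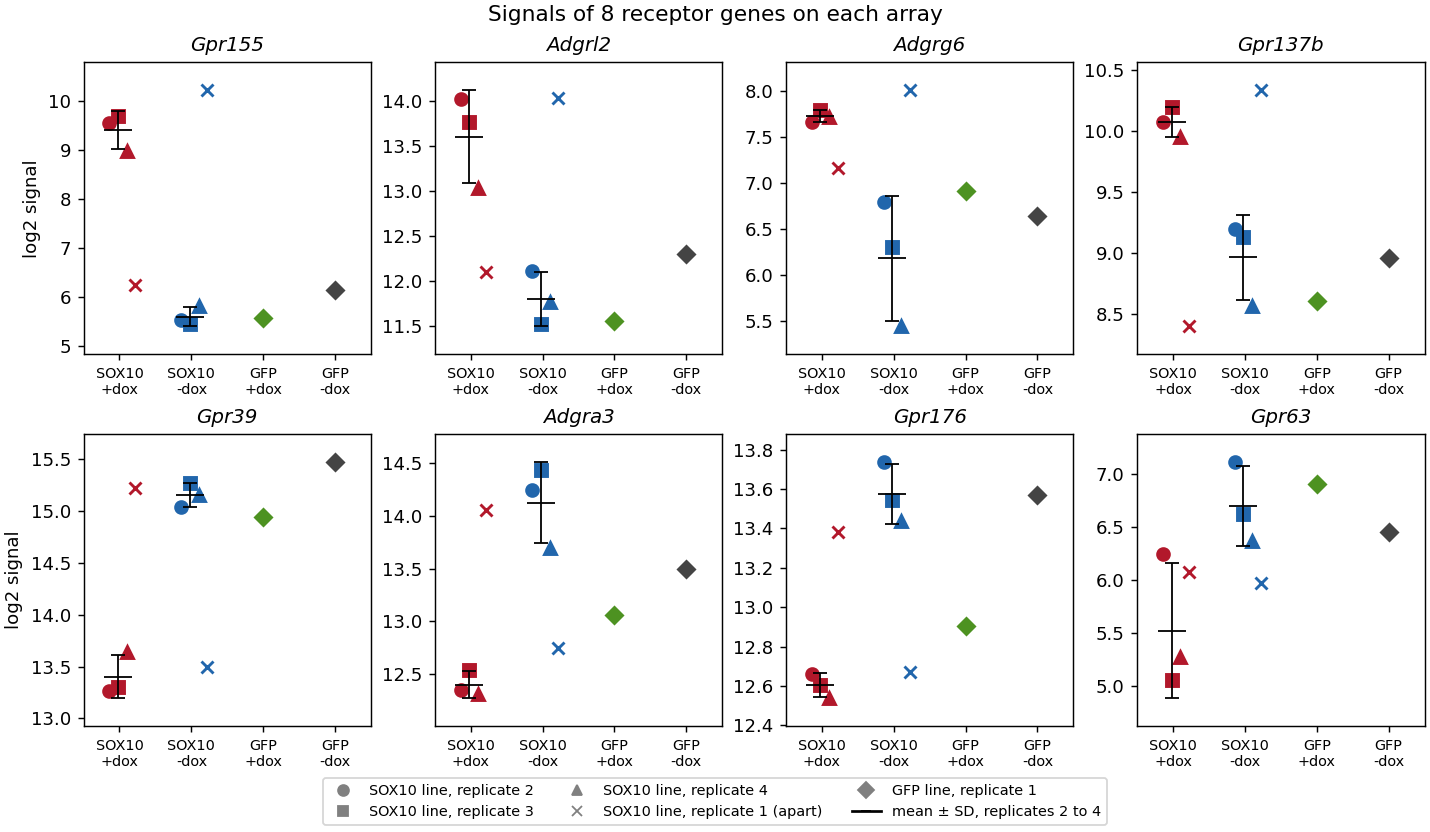
Log2 signal (y axis, separate scale for each gene) of 8 receptor genes on each of the 10 arrays, by group (x axis). Bars are means ± SD of SOX10 replicates 2 to 4, crosses are the arrays labelled replicate 1. For Gpr155 the SOX10 +dox replicates 2 to 4 lie between 8.97 and 9.70 and the SOX10 -dox replicates between 5.44 and 5.81, with the crosses the other way round.

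Gpr39 and Adgra3 were lower in SOX10 +dox cells. Gpr39 encodes a zinc-sensing receptor, and its log2 signals were 13.27, 13.30 and 13.64 in SOX10 +dox cells, against 15.04, 15.28 and 15.15 in SOX10 -dox cells. The groups stood apart by more than the spread within either, and the gene fell by 1.75 ± 0.22 on the log2 scale (3.37-fold, adjusted p = 9.34e-04, limma). In the GFP line it was 14.94 with and 15.47 without doxycycline. The difference between the responses of the lines (-1.22 ± 0.43) did not pass (adjusted p = 0.422).

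Adgra3 encodes GPR125, an adhesion receptor linked to planar cell polarity in zebrafish. It gave 12.35, 12.54 and 12.31 in SOX10 +dox cells and 14.25, 14.44 and 13.70 in SOX10 -dox cells, again without overlap. The gene fell by 1.73 ± 0.25 on the log2 scale (3.31-fold, adjusted p = 0.00237, limma). The GFP line had 13.06 with and 13.49 without doxycycline, below all 3 SOX10 -dox arrays and above all 3 SOX10 +dox arrays. Its relative Adgra2, which encodes GPR124, a receptor for Wnt7 signals in brain vessels, had 12.53, 12.86 and 13.67 in SOX10 +dox cells and 13.59, 13.57 and 14.39 in SOX10 -dox cells. These groups overlapped, and the difference of -0.82 ± 0.33 did not pass (adjusted p = 0.263). With the replicate number as a block the adjusted p was 0.0411, at a difference that stayed under 2-fold.

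Gpr176 and Gpr63 lay next to the thresholds. Gpr176, an orphan receptor known from the circadian clock of the mouse brain, had 12.66, 12.61 and 12.54 in SOX10 +dox cells and 13.74, 13.55 and 13.44 in SOX10 -dox cells. The groups did not overlap and the adjusted p was 0.0248 (limma), but the difference of -0.97 ± 0.21 stayed just inside 2-fold. Gpr63, an orphan receptor of brain, had 6.24, 5.06 and 5.27 in SOX10 +dox cells and 7.11, 6.62 and 6.37 in SOX10 -dox cells. Its difference of -1.17 ± 0.33 was over 2-fold but did not pass (adjusted p = 0.0822, limma), whereas with the replicate number as a block it did (adjusted p = 0.0113). All of its signals were below the brightest background control.

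Members known from glia did not pass the test, apart from Adgrg6, which is named only in the study's list of changed genes. Gpr37, which restrains oligodendrocyte maturation in the mouse, had 8.20, 7.84 and 8.06 in SOX10 +dox cells and 8.02, 7.90 and 6.92 in SOX10 -dox cells (0.42 ± 0.30, adjusted p = 0.589). The groups overlapped, and SOX10 -dox replicate 4 was the low array. Gpr37l1, a receptor of astrocytes, had a difference of -0.54 ± 0.24 (adjusted p = 0.339) and Gpr17, which marks oligodendrocyte precursors, of 0.15 ± 0.29. Among adhesion receptors, Adgrg1, known from oligodendrocyte precursors, had -0.17 ± 0.24. The BAI receptors Adgrb1, Adgrb2 and Adgrb3, of which Adgrb1 takes part in the uptake of dying cells, had 0.22 ± 0.27, 0.20 ± 0.25 and 0.35 ± 0.24. A p that misses the threshold does not show that these genes were equal in both groups. Among them, Gpr37l1, Gpr17, Adgrb1, Adgrb2 and Adgrb3 were above the brightest background control on no array.

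Receptors of microglia, macrophages and leukocytes likewise did not pass. Gpr34 had 0.08 ± 0.24, Gpr84 0.36 ± 0.25, Gpr183, a receptor for oxysterols, -0.10 ± 0.28, Adgre1, a surface marker of macrophages, 0.06 ± 0.27, and Adgre5, which encodes CD97, -0.28 ± 0.24. Gpr34, Gpr84, Gpr183 and Adgre1 were above the brightest background control on no array, and Adgre5 on 2 SOX10 -dox arrays only. The mean log2 signal of the 8 macrophage markers, Adgre1 among them, was 5.26 to 5.46 in SOX10 +dox cells and 5.33 to 5.42 in SOX10 -dox cells. Cd14, the only one of them above background, had 11.38, 11.16 and 10.58 in SOX10 +dox cells and 12.59, 12.88 and 12.36 in SOX10 -dox cells, and its part in these values was not tested. Gpr143, a receptor of melanosomes, had a difference of -0.32 ± 0.29 and signals between 3.79 and 4.26 in SOX10 +dox cells and between 3.88 and 4.91 in SOX10 -dox cells.

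The other 46 genes had log2 differences between -0.60 (Gpr107) and 0.97 (Adgrl4), with a median SE of 0.24, and the smallest adjusted p among them was 0.104. Over the 74 genes, 45 differences were above 0 (43 of the 70 with a platform symbol), where 11186 of all 23188 transcript clusters were. The SOX10 groups did not overlap for 10 genes on the higher side and 8 on the lower side, where 9.5% and 10.5% of all transcript clusters did so. Among the 70 genes with a platform symbol it was 8 and 7. At an unadjusted p under 0.05, 13 genes passed, 7 higher and 6 lower (14.8% of all transcript clusters). Among the 70 genes with a platform symbol, 5 were higher and 4 lower at that p.

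Of the 11 genes above the brightest background control on every array, Gpr107, Gpr89b, Gpr108 and Gpr146 were not yet described and are given here after their values were seen. Gpr107, a protein of the Golgi and of vesicle traffic, had 13.36, 13.67 and 13.77 in SOX10 +dox cells and 14.02, 14.05 and 14.54 in SOX10 -dox cells (-0.60 ± 0.24, adjusted p = 0.252). Gpr89b, which helps to set the pH of the Golgi, had 10.92, 10.62 and 10.78 in SOX10 +dox cells and 11.13, 11.25 and 10.93 in SOX10 -dox cells (-0.33 ± 0.21). The groups of both genes did not overlap, yet the differences were under 2-fold and did not pass. Gpr108 (-0.33 ± 0.24) and Gpr146 (0.15 ± 0.24) had overlapping groups and did not pass.

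**Figure D2:**
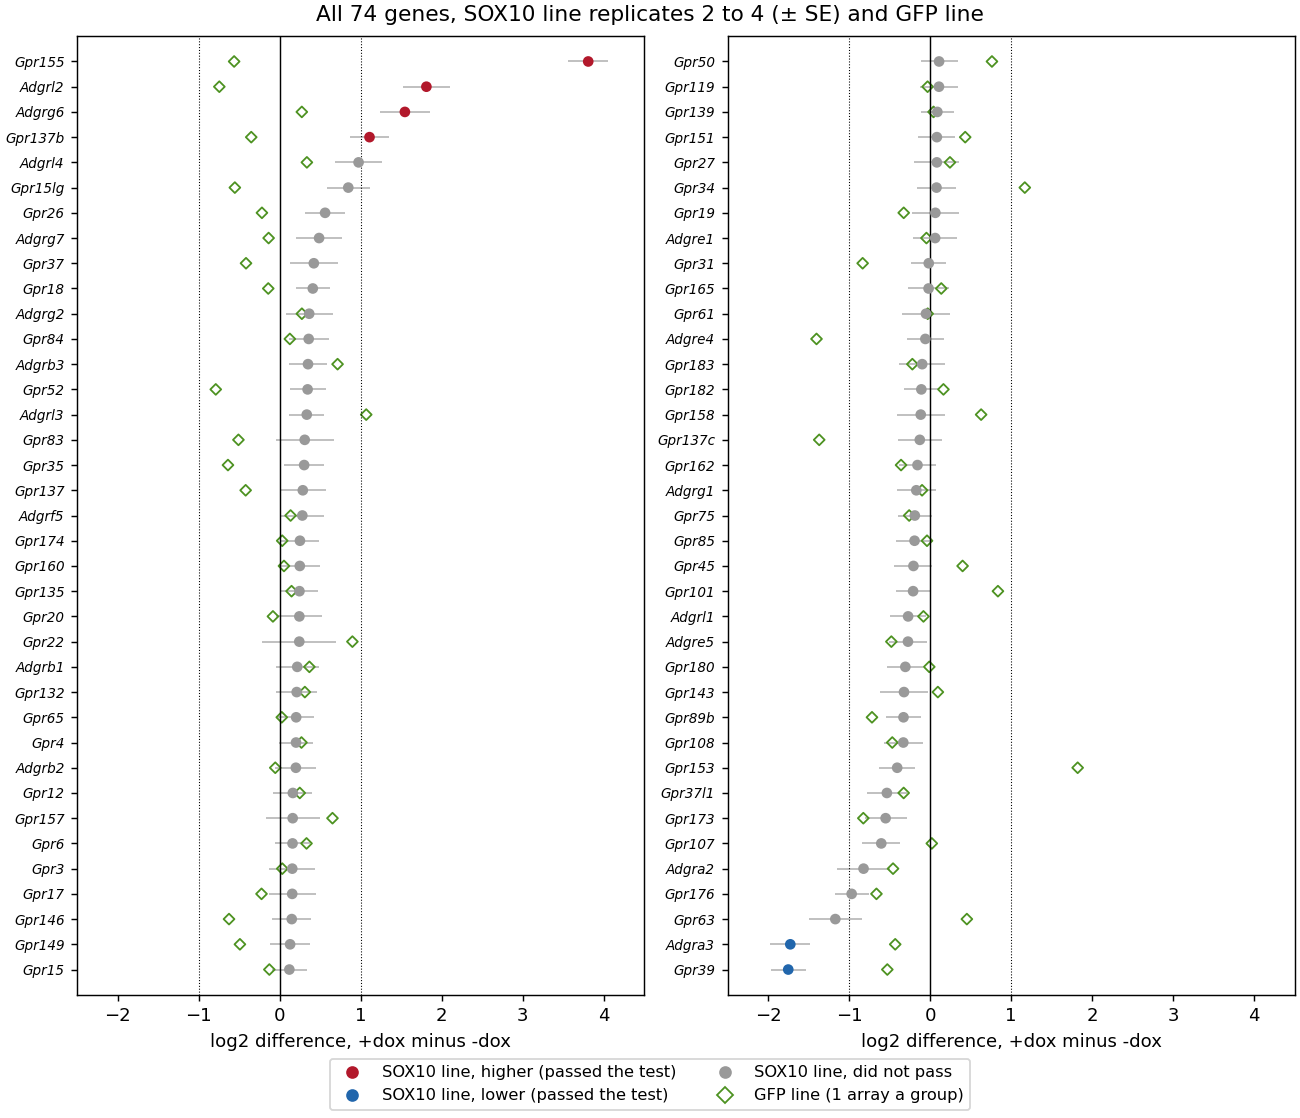
Log2 difference, +dox minus -dox (x axis), of all 74 genes (y axis, ordered by the difference in the SOX10 line). Filled points with bars are SOX10 replicates 2 to 4 ± SE, coloured where the gene passed, and open diamonds are the GFP line with 1 array a group. Dotted lines mark 2-fold. Between Gpr155 at 3.81 and Gpr39 at -1.75 most genes lie within 2-fold of 0.

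Doxycycline in the GFP line gave 0 called genes, with 7 of the 74 at an unadjusted p under 0.05 (0% of all transcript clusters called and 6.29% at that p, limma). Since each GFP group has 1 array, the spread in this test came from the SOX10 replicates. Gpr153, an orphan receptor, had 6.22 in GFP +dox cells and 4.40 in GFP -dox cells (log2 difference 1.82 ± 0.39), while in the SOX10 line it was 4.87, 5.13 and 4.96 in SOX10 +dox cells and 5.18, 5.34 and 5.67 in SOX10 -dox cells. The difference between these responses was -2.23 ± 0.45, which did not pass (adjusted p = 0.0802). Gpr34 (1.17) and Adgrl3 (1.07) were the other genes at least 2-fold higher, 3 of 74 where 3.66% of all transcript clusters were. Adgre4 (-1.40) and Gpr137c (-1.37) were at least 2-fold lower, 2 of 74 where 2.27% were, followed by Gpr31 (-0.83). All 6 of these genes were below the brightest background control on every array.

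Genes with which the receptors work were examined in 6 lists of ligands, G proteins and regulators. Unlike among the receptors, genes named only in the study's list were left out. Of the 119 listed genes, 109 carried a platform symbol and were counted. Of these, 5 were called (4.59%), 4 higher and 1 lower, beside the 3.5% of all transcript clusters. Rgs2, which quenches signals of Gq proteins, had 13.29, 13.43 and 11.24 in SOX10 +dox cells and 9.84, 10.18 and 9.06 in SOX10 -dox cells. The groups did not overlap, and Rgs2 rose by 2.96 ± 0.51 on the log2 scale (adjusted p = 0.00798, limma). It was the only one of 18 regulators of G protein signalling with a platform symbol to be called. In the GFP line Rgs2 had 8.93 with and 8.74 without doxycycline.

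Gng12, a gamma subunit, was the only called gene among the 14 beta and gamma subunits with a platform symbol. It had 15.93, 16.15 and 15.68 in SOX10 +dox cells and 14.72, 14.50 and 14.50 in SOX10 -dox cells (1.34 ± 0.22, adjusted p = 0.00597, limma). Grk4, a kinase that desensitizes receptors, had 10.98, 10.88 and 11.45 in SOX10 +dox cells and 9.94, 9.57 and 9.99 in SOX10 -dox cells (1.27 ± 0.24, adjusted p = 0.0129, limma). Both rose without overlap of the groups. The call of Grk4 was lost without SOX10 -dox replicate 3. Arrb1, an arrestin that uncouples receptors from G proteins, had 10.63, 10.77 and 10.23 in SOX10 +dox cells and 8.97, 9.38 and 9.95 in SOX10 -dox cells (1.11 ± 0.28) and lay next to the threshold (adjusted p = 0.0561). With the replicate number as a block its adjusted p was 0.0447. None of the 15 alpha subunits and none of the 20 adenylyl cyclases and cAMP effectors with a platform symbol was called.

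Of 40 listed ligands and binding partners of the adhesion receptors and of Gpr37, 34 carried a platform symbol. Among these, 1 was higher and 1 lower. Listed genes without a platform symbol, Lama4 among them, were not examined, though the paper reports LAMA4 among its SOX10-induced genes. Prnp encodes the prion protein, whose N-terminal part is a ligand of Adgrg6 on mouse Schwann cells. It had 16.76, 16.71 and 15.66 in SOX10 +dox cells and 15.05, 15.02 and 14.85 in SOX10 -dox cells (1.40 ± 0.30, adjusted p = 0.0233, limma), with SOX10 +dox replicate 4 the lowest of its group. Unc5b, a netrin receptor that also binds FLRT proteins, had 14.89, 14.93 and 15.59 in SOX10 +dox cells and 16.33, 16.35 and 16.76 in SOX10 -dox cells (-1.34 ± 0.26, adjusted p = 0.0138, limma). Both calls were lost when single arrays were left out: that of Prnp without any array but SOX10 +dox replicate 4, and that of Unc5b without SOX10 +dox replicate 2, SOX10 +dox replicate 3 or SOX10 -dox replicate 4. The genes with a platform symbol for teneurins and FLRT proteins, which bind latrophilins, did not pass. Cd55, the ligand of Adgre5, had 11.91, 11.07 and 9.44 in SOX10 +dox cells and 13.13, 12.86 and 10.81 in SOX10 -dox cells. These groups overlapped, with replicate 4 the lowest of both, and the difference of -1.46 ± 0.66 did not pass (adjusted p = 0.33), whereas with the replicate number as a block it did (adjusted p = 0.00325), which makes 2 lower ligands.

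**Figure D3:**
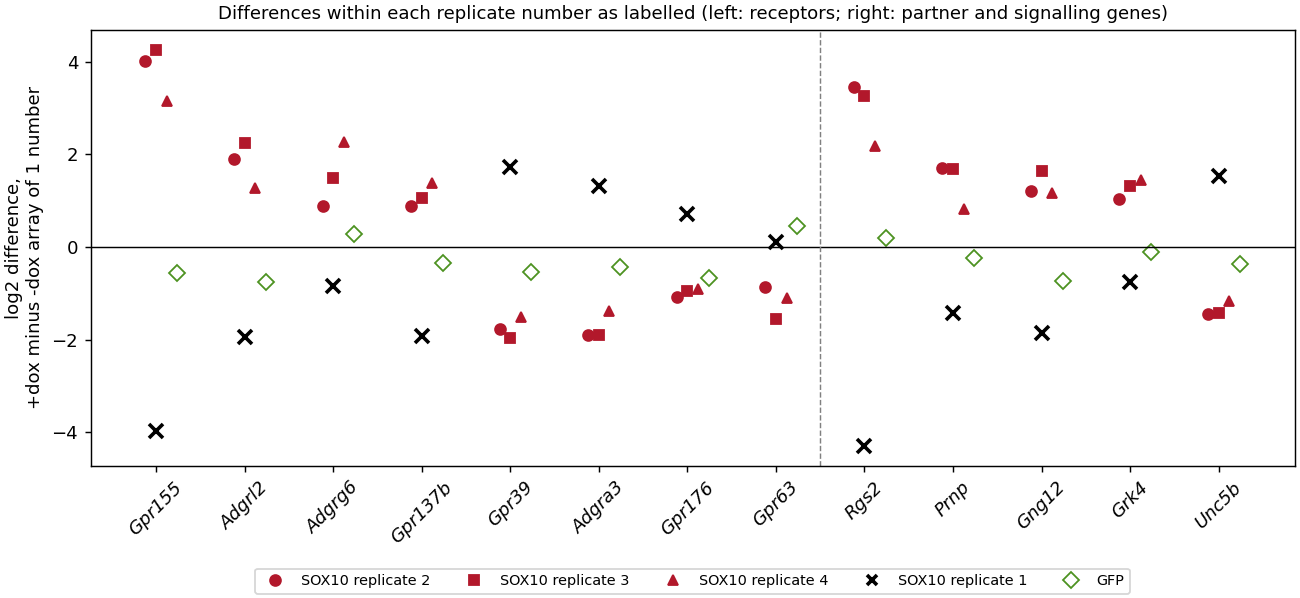
Log2 difference between the +dox and the -dox array of the same replicate number (y axis) for 8 receptor genes (left) and 5 partner and signalling genes (right). Filled symbols are SOX10 replicates 2, 3 and 4, crosses are the arrays labelled replicate 1, and open diamonds are the GFP line. For Gpr155 the differences of replicates 2 to 4 lie between 3.16 and 4.26 and that of replicate 1 is -3.97.

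Replicate 1, taken as labelled, ran against the other replicates for 51 of the 74 genes (68.9%), where it did for 61.9% of all transcript clusters, and for all 6 called genes, as for 804 of the 812 transcript clusters called. Among the 70 genes with a platform symbol it did so for 47. The difference of the replicate 1 arrays was -3.97 for Gpr155, -1.95 for Adgrl2, -0.85 for Adgrg6, -1.93 for Gpr137b, 1.72 for Gpr39 and 1.32 for Adgra3. When all 8 SOX10 arrays were fitted as labelled, 0 of the 74 genes passed (smallest adjusted p = 0.973, limma). By that fit 0 of all 23188 transcript clusters passed too. At an unadjusted p under 0.05 were 3 of the 74 genes and 1 of the 70, beside 3.72% of all transcript clusters. The log2 differences were then 1.86 ± 1.03 for Gpr155, 0.87 ± 0.54 for Adgrl2, 0.95 ± 0.43 for Adgrg6, 0.35 ± 0.44 for Gpr137b, -0.88 ± 0.48 for Gpr39 and -0.97 ± 0.44 for Adgra3. Each call above therefore holds for replicates 2 to 4 alone. Replicate 4 also stood apart from replicates 2 and 3: pairs with it differed by at least 2-fold at 1318 to 1758 transcript clusters within a group, against 555 (SOX10 +dox) and 645 (SOX10 -dox) for replicates 2 and 3.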

How the data were processed

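Total RNA was hybridized to 10 Clariom S arrays. Log2 signals, a single value for each probe set on each array, were made by the authors in the Transcriptome Analysis Console. Summarization and normalization are not given in the sources used here. After 1646 control probe sets (31 AFFX, 63 ERCC, 1552 RG) were left out, 23188 transcript clusters were tested. Members, partner lists and the rule for named genes were chosen with earlier results of these data known. Each of the 74 genes had a single transcript cluster, and 4 of the symbols came from the study's list alone.

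The 4 groups entered a single limma 3.58.1 model (R 4.3.3) of 8 arrays, without replicate 1 of the SOX10 line. Contrasts were SOX10 +dox minus SOX10 -dox, GFP +dox minus GFP -dox, and their difference. P-values were adjusted by Benjamini and Hochberg's method across all clusters, and calls needed an adjusted p under 0.05 and 2-fold. The methods name 0.01, the legend 0.05. Errors are SE of the fit. The script was tested on simulated data.

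The main model held no pairing of arrays. For arrays of 1 number, deviations from group means correlated at 0.19, 0.15 and 0.41 for replicates 2, 3 and 4. Across numbers, SOX10 +dox replicate 3 with SOX10 -dox replicate 2 gave 0.17, and SOX10 +dox replicate 2 with SOX10 -dox replicate 3 gave 0.13. Pairs of replicate 4 with another number gave -0.28 to -0.22. Matched pairs thus stood out clearly for replicate 4 alone. The replicate number as a block was an alternative. Other alternatives were array weights, quantile normalization, centring, a filter on dim clusters, another summary per gene, robust eBayes with trend and leaving out single arrays. The number of arrays limits precision. Named genes were members that passed, those in the study's list, members known from glia, the largest differences and the called partners. Promoters came from RefSeq (GRCr8), with a window for 60 of 74 genes.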

Additional observations from a re-analysis of the deposited data

Results flagged for a closer look

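The SOX10 groups of 4 arrays were screened for a single array far from the other 3, for 28 named genes in 56 groups, of which chance marks about 1 in 20. In 5 groups an array stood out, and in all 5 it was labelled replicate 1. The genes of all 5 had an adjusted p under 0.05 on replicates 2 to 4 (limma) and were named for that. Replicate 1 was also known beforehand to run against its labels for Sox10. The count can therefore not be set against the rate by chance. Gpr155 had 10.21 on SOX10 -dox replicate 1, where the nearest array of the group had 5.81. Gpr39 had 13.50 on SOX10 -dox replicate 1, with the nearest at 15.04. Adgra3 had 14.06 on SOX10 +dox replicate 1, with the nearest at 12.54. Gpr137b had 8.40 on SOX10 +dox replicate 1, with the nearest at 9.95. Gpr176 had 13.38 on SOX10 +dox replicate 1, with the nearest at 12.66. On the same arrays Sox10 ran against both labels, and what these arrays hold was not tested.

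Gpr155 also differed between the lines: its SOX10 effect was 4.37 ± 0.50 above its GFP effect (log2, SE, adjusted p = 0.00393, limma), with 3.16 to 4.26 in SOX10 replicates 2 to 4 and -0.56 in the GFP line, which has 1 array a group.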

How the results depend on the processing

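The calls of Gpr155, Adgrl2, Gpr39 and Adgra3 were kept under each alternative except all 8 SOX10 arrays as labelled. There 0 genes were higher, 0 lower, 0 differed between the lines and 0 partner genes were called. Of all transcript clusters, 0 were called higher or lower in that fit. At an adjusted p under 0.01, 2 genes were higher (Adgrg6 and Gpr137b were lost) and 2 partner genes called. All transcript clusters then gave 308 higher and 113 lower, against 525 and 287 in the main fit. Array weights gave 6 higher (Adgrl4 and Gpr15lg were gained) and 3 that differed between the lines (Gpr155, Adgrl2 and Gpr153). Of all transcript clusters, 654 were higher and 363 lower with array weights. With the replicate block, Gpr63 was gained (adjusted p = 0.0113), giving 3 lower, and partner calls were 7 (Cd55 and Arrb1 were gained). The block changed no other call among these genes, and gave 637 higher and 375 lower of all transcript clusters. Arrb1 was also gained with array weights, quantile normalization, the filter on dim clusters and robust eBayes, and without replicate 4 of SOX10 +dox or of SOX10 -dox cells. Array weights also gained Adcy5.

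Leaving out single arrays gave 2 to 6 higher, 2 to 3 lower, 1 to 2 that differed between the lines and 3 to 7 partner genes. Of all transcript clusters, 333 to 639 were then higher and 140 to 324 lower. The lowest number of higher genes came without SOX10 +dox replicate 2, SOX10 +dox replicate 3 or SOX10 -dox replicate 3, each losing Adgrg6 and Gpr137b. Without SOX10 +dox replicate 4, Adgrl4 and Gpr15lg were gained, and Adgrl2 differed between the lines. Tgm2, of the list of ligands and binding partners, was also gained there, as lower (-1.04, adjusted p = 0.0338, limma). Without SOX10 +dox replicate 2, Gpr63 was called (-1.53, adjusted p = 0.0259), and without SOX10 -dox replicate 4, Gpr176 (-1.04, adjusted p = 0.0428). The cause was not tested.

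Genes near 0 changed sign, none of them called. With all 8 arrays the log2 differences were -0.10 for Gpr34, 0.11 for Gpr137c and 0.0061 for Gpr31, and with array weights -0.086 for Adgre1 and 0.0080 for Gpr31. Over single arrays left out, the range was -0.078 to 0.37 for Gpr17, -0.083 to 0.28 for Gpr34, -0.26 to 0.15 for Gpr183, -0.18 to 0.35 for Adgre1, -0.19 to 0.024 for Adgre4, -0.37 to 0.063 for Gpr137c and -0.079 to 0.088 for Gpr31. Signals below the brightest background control, those of 53 of 74 genes, leave low levels unresolved.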
